A study of Mus musculus with 18 samples.

Results

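Sesn1, Sesn2, Sesn3, Ddit4, Ddit4l, Eif4ebp1 and Eif4ebp2 are 7 genes whose proteins hold back mTORC1 or what mTORC1 does to translation. They were found by their gene symbol, which matched 1 gene each, and make up 7 of the 38924 genes in every table. The measurements are ribosome-associated mRNA from the spinal cord of 18 mice, all aged 8 weeks and of the mixed strain background B6;CASTxB6.129. Every mouse carried 1 tagged allele of the ribosomal protein gene Rpl22 (RiboTag), which Cre recombinase switches to a form with a haemagglutinin tag, so that ribosomes can be pulled down from the cells in which Cre was active. Cre was expressed from Chat, the gene of choline acetyltransferase, so the tag marks every spinal cord cell that uses Chat and not motor neurons alone. The groups also differed at Gars, the gene of glycyl-tRNA synthetase, whose P278KY allele is a dominant change that causes a motor neuropathy in mice.

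The Cre P278KY group (n = 3) had 1 Chat-Cre allele and 1 P278KY allele, and the Cre WT group (n = 4) had 1 Chat-Cre allele and normal Gars. The NoCre P278KY group (n = 6) and the NoCre WT group (n = 5) had the tagged Rpl22 allele but no Cre, so their pull-downs measure the unspecific background. The replicate numbers used here only name mice. The Cre libraries held 14659532 to 24028695 counts and the NoCre libraries 8177817 to 14450218. The library descriptions reuse index and sample numbers, from which 2 sequencing pools were inferred. The labels do not name a pool, so what this batch is remains an inference. All Cre P278KY libraries and replicates 1 and 2 of Cre WT were in pool 1, and replicates 3 and 4 of Cre WT were in pool 2. By their sex-linked transcripts the NoCre and Cre WT mice of pool 1 were male and those of pool 2 female, so pool and sex cannot be told apart among them. Cre P278KY held 1 male and 2 female mice, so every value within pool 1 for the Cre genotypes sets these against 2 male Cre WT mice. Protein-coding genes held 23.0% to 54.8% of all counts across NoCre WT libraries and 37.5% to 60.4% across NoCre P278KY libraries, against 63.6% to 87.0% with Cre. Mitochondrial ribosomal RNA made up 1.36% to 4.88% with Cre and 24.2% to 53.8% without, so this difference in make-up goes with every Cre against NoCre value, and its part in them was not tested. All 10 cholinergic motor neuron markers rose in Cre over NoCre in both genotypes. Summed, they reached 1608 to 3368 CPM with Cre and 60.8 to 127 CPM without. CPM here is counts per 1000000 after TMM scaling over the 18 libraries.

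mTORC1 is a kinase complex on the lysosome that couples protein synthesis and growth to amino acids, growth factors and energy. The sestrins Sesn1, Sesn2 and Sesn3 bind GATOR2, a complex that normally relieves the GATOR1 brake on the Rag GTPases. Sesn2 and Sesn1 let go of GATOR2 when they bind leucine. Ddit4 (also called REDD1) and its relative Ddit4l (REDD2) act through the TSC complex, which switches off Rheb, the direct activator of mTORC1. Eif4ebp1 and Eif4ebp2 encode 4E-BPs, which bind the cap-binding factor eIF4E and block translation until mTORC1 phosphorylates them. Several of these genes are stress-induced: Sesn2 and Ddit4 are known targets of ATF4, the transcription factor of the integrated stress response, Sesn1 and Sesn2 of p53, Sesn1 and Sesn3 of FoxO factors, and Ddit4 of hypoxia and glucocorticoids.

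The start regions of the sestrin genes and Ddit4 are shown because Sesn2 rose in the mutant and the other sestrins were not called, and because Ddit4 shares a regulator with Sesn2. The sequences run 5′ to 3′ on the strand of the gene, come from RefSeq (GRCm38.p6) and are limited to the bases outside annotated exons. Sesn2 lies at chr4:132510502-132510706 on the minus strand, the second of 2 listed starts of Sesn1 at chr10:41887189-41887438 on the plus strand, Sesn3 at chr9:14276051-14276300 on the plus strand and Ddit4 at chr10:59951835-59952020 on the minus strand. Capitals mark the hypoxia element.
Sesn2: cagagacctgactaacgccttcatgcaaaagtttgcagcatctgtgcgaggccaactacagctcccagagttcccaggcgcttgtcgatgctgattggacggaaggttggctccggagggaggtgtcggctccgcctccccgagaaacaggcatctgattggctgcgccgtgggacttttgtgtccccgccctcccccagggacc
Sesn1: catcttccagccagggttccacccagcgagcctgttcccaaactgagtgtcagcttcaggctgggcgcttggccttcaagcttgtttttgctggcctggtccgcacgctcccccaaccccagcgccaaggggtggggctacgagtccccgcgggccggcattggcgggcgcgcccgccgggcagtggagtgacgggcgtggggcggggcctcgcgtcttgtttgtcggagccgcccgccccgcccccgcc
Sesn3: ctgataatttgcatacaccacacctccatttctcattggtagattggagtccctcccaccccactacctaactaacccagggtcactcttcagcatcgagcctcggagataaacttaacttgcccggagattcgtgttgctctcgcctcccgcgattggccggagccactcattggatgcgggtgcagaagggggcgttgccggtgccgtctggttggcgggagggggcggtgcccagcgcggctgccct
Ddit4: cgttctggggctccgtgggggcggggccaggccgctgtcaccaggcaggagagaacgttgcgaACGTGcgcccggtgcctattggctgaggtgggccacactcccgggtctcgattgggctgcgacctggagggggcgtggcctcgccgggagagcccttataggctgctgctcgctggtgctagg

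Windows from 250 bases before to 50 after a start were searched on both strands in 6 of the 7 genes (7 windows). The C/EBP-ATF response element TGATGNAA, which ATF4 binds, was in none of them and in 3.97% of all 32851 windows. It was present at 8 of 24 genes of an integrated stress response list, so most genes of that list lack it in this window too. The FoxO element GTAAACA (3.65% of all windows) occurred once, 22 bases after the first start of Sesn1. The hypoxia element ACGTG, which overlaps the E-box CACGTG, is common (19.6% of all windows). It occurred at position −187 from the start of Ddit4 and at −182 from that of Eif4ebp2. The p53 site, a pair of matching elements up to 13 bases apart, was in 0.0731% of all windows and in none of these. A match describes the letters only.

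Sesn2 (ENSMUSG00000028893, chr4:132492032-132510501, minus strand) was the gene of the 7 that rose in the mutant. Its level was 40.7, 43.7 and 40.5 CPM in the 3 Cre P278KY libraries. In the 4 Cre WT libraries it was 10.1, 7.66, 7.71 and 8.56 CPM. The 3 mutant values lie close together and every one is above every Cre WT value. The means were 41.6 ± 1.79 (SD, n = 3) and 8.51 ± 1.13 (SD, n = 4) CPM, and the fitted log2 fold change was 2.31 ± 0.19 (SE; edgeR quasi-likelihood adjusted p = 0.000299), a 4.97-fold rise. Among all 14717 genes tested, 1.22% were called higher in this comparison, and Sesn2 was the only 1 of the 7 genes called in either direction (2.32% of all genes, and 1.11% lower). Within pool 1, where 3 Cre P278KY libraries face 2 Cre WT libraries, the log2 fold change was 2.29 (adjusted p = 0.000188). In these pull-downs, a change in the number or make-up of the tagged cells and a change in ribosome-bound mRNA per cell cannot be told apart. A gene annotated to the antisense class, Gm12981, overlaps Sesn2 on the same (minus) strand, and its part in the Sesn2 counts was not tested.

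Without Cre, Sesn2 did not show this difference. NoCre WT libraries had 3.06, 2.73, 3.18, 0.996 and 5.17 CPM, and the 6 NoCre P278KY libraries ranged from 3.13 to 4.46 with a median of 3.89 CPM. The mutant values all fall inside the WT range. The means were 3.03 ± 1.49 (SD, n = 5) and 3.86 ± 0.548 (SD, n = 6) CPM, and the fitted difference was 0.33 ± 0.27 on the log2 scale (SE; adjusted p = 0.790, 95% interval −0.19 to 0.86). The difference between the genotype effects with and without Cre, tested as an interaction, was 1.96 ± 0.41 (SE; edgeR adjusted p = 0.0208), and 0.344% of 17133 genes were called higher there and 0.654% in either direction. That call was lost without Cre P278KY replicate 1 (adjusted p = 0.0783), replicate 2 (0.0723) or replicate 3 (0.0638) and without Cre WT replicate 3 (0.050045), while the log2 value stayed between 1.74 and 2.196 over the 18 fits that each left out 1 library. With libraries scaled by their total only, it was 1.71 (adjusted p = 0.397). Within pool 1 it was 1.78 (0.0219).

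Sesn2 mRNA was also enriched by the pull-down, more in the mutant. It was higher in Cre than in NoCre libraries by 1.47 ± 0.29 on the log2 scale in WT mice (SE; adjusted p = 1.67e-04) and by 3.43 ± 0.28 in P278KY mice (adjusted p = 3.13e-09). These folds are 2.78 and 10.8. In both genotypes the lowest Cre library was above the highest NoCre library. The WT enrichment was 1.64 within pool 1 (adjusted p = 1.62e-04) and 1.35 within pool 2 (0.0969). Passing the test is common there: 59.7% of all genes were called in WT and 59.4% in P278KY.

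**Figure D1:**
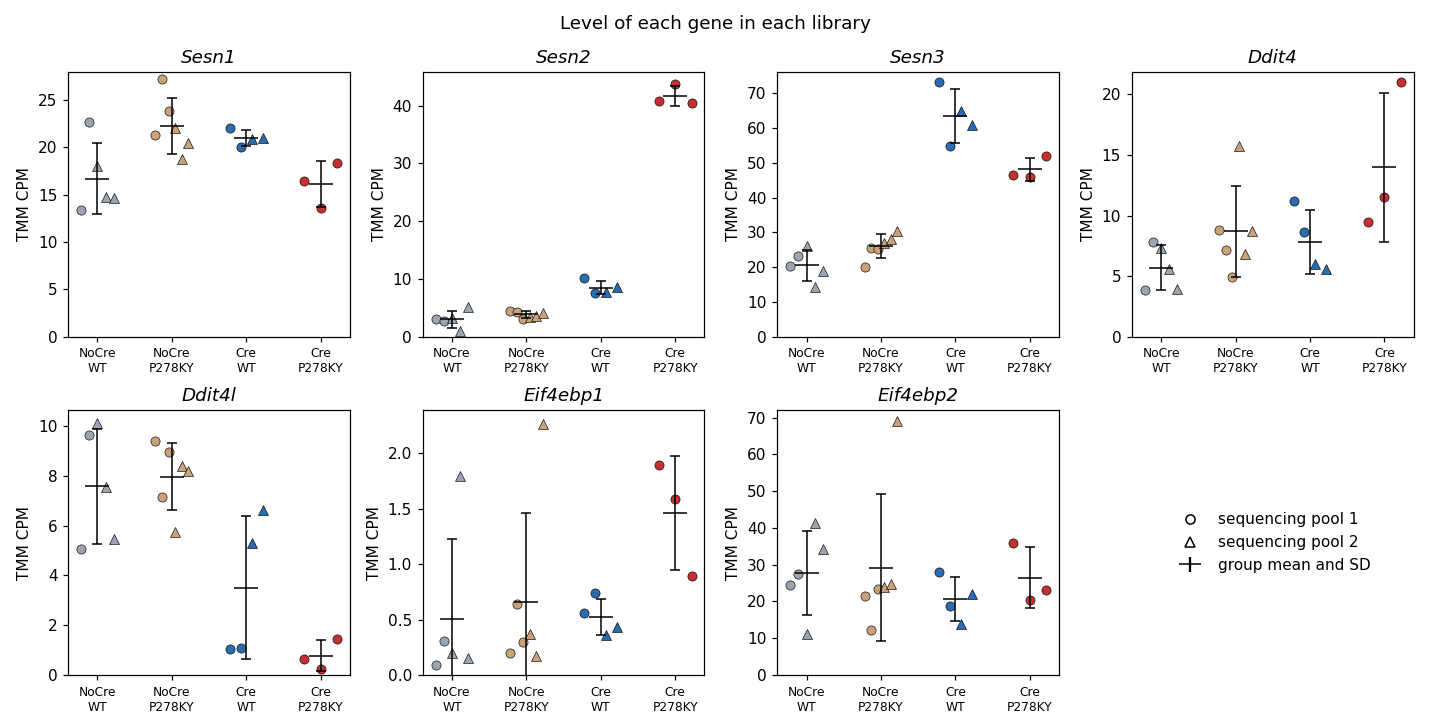
Level of each of the 7 genes in every library, as CPM after TMM scaling (y axes differ and start at 0), by group; circles are pool 1, triangles pool 2, and bars give the group mean and SD. Sesn2 sits between 40.5 and 43.7 in Cre P278KY and at or below 10.1 in all other libraries, while Ddit4l in Cre WT splits by pool.

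Sesn3 (ENSMUSG00000032009, chr9:14275067-14333101, plus strand) was the most abundant sestrin in the tagged cells by its level per kilobase (given below). It had 73.3, 55.0, 65.0 and 60.9 CPM in Cre WT and 46.6, 45.8 and 52.0 CPM in Cre P278KY. All 3 mutant values are below all 4 WT values, the opposite of Sesn2. The fitted log2 difference was −0.38 ± 0.18 (SE) and did not pass the test (edgeR adjusted p = 0.338, unadjusted p = 0.0593). Its normal 95% interval, −0.73 to −0.03, leaves out 0 only because it is narrower than the test implies. Within pool 1 it was −0.35 (adjusted p = 0.322). Sesn3 was enriched in Cre over NoCre libraries in WT mice by 1.62 ± 0.19 (SE; adjusted p = 3.21e-07) and in P278KY mice by 0.89 ± 0.19 (adjusted p = 4.86e-04). NoCre WT libraries had 20.4, 23.2, 26.0, 14.3 and 18.9 CPM and NoCre P278KY libraries 20.1 to 30.5 CPM with a median of 26.2. Every Cre library is above every NoCre library of its genotype. The interaction of genotype and Cre was −0.73 ± 0.27 (SE) and did not pass (adjusted p = 0.274).

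Sesn1 (ENSMUSG00000038332, chr10:41809935-41908424, plus strand) was lower in every Cre P278KY library than in every Cre WT library, by less than the test resolves. Cre WT libraries had 21.99, 20.0, 20.9 and 21.0 CPM, a spread of 0.806 (SD, n = 4). Cre P278KY libraries had 16.4, 13.6 and 18.3 CPM, all below Cre WT. The log2 difference was −0.36 ± 0.19 (SE; adjusted p = 0.401, 95% interval −0.73 to 0.01), so the test did not call it. NoCre WT libraries had 13.4, 22.7, 18.0, 14.7 and 14.6 CPM, and NoCre P278KY libraries 18.8 to 27.2 with a median of 21.7. These groups overlap each other, and the NoCre WT range spans every Cre value. Cre against NoCre gave 0.33 ± 0.20 in WT (adjusted p = 0.155) and −0.47 ± 0.21 in P278KY (0.0602), where each Cre library lay below each NoCre library. The P278KY value passed in 6 of 19 alternatives: DESeq2 (−0.59, adjusted p = 0.00615), RLE factors (−0.58, 0.0212), limma voom (−0.50, 0.0318), without NoCre WT replicates 4 and 5 (−0.48, 0.0380), within pool 1 (−0.55, 0.0400) and with pool as a term (−0.54, 0.0441).

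Scaled to length, the sestrins of the tagged cells differed between the genotypes in make-up, while their sums overlapped. Levels per kilobase of mean effective length allow genes to be set beside each other. In Cre WT, Sesn3 stood at 31.7 ± 3.83, Sesn1 at 8.03 ± 0.309 and Sesn2 at 2.56 ± 0.342 CPM per kilobase (SD, n = 4). In Cre P278KY the order was Sesn3 at 24.0 ± 1.68, Sesn2 at 12.5 ± 0.539 and Sesn1 at 6.17 ± 0.912 (SD, n = 3), so Sesn2 passed Sesn1. The summed level was 42.3 ± 4.42 in Cre WT (37.4 to 48.0) and 42.7 ± 2.12 in Cre P278KY (41.2 to 45.2), and the mutant range lies inside the WT range. With libraries scaled by their total only, it was 31.0 to 58.4 in Cre WT and 42.6 to 54.2 in Cre P278KY. Under that scaling the Cre WT libraries of pool 1 had 31.0 and 41.8, below every Cre P278KY library. Sesn2 made up 6.06% ± 0.422 of the sum in Cre WT (5.44 to 6.34) and 29.4% ± 2.46 in Cre P278KY (27.02 to 31.9). The share of Sesn3 was 74.8% ± 1.36 against 56.1% ± 1.12, and that of Sesn1 19.1% ± 1.27 against 14.4% ± 1.56. Shares from the deposited TPM values were 6.04% and 29.4% for Sesn2. Since shares add up to a whole, a higher share of 1 sestrin lowers the others. The NoCre libraries held less sestrin mRNA in sum, 17.6 ± 3.38 in WT (n = 5) and 22.7 ± 1.80 in P278KY (n = 6), with Sesn2 at 5.18% ± 2.67 and 5.17% ± 0.953. No test was run on sums or shares.

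**Figure D2:**
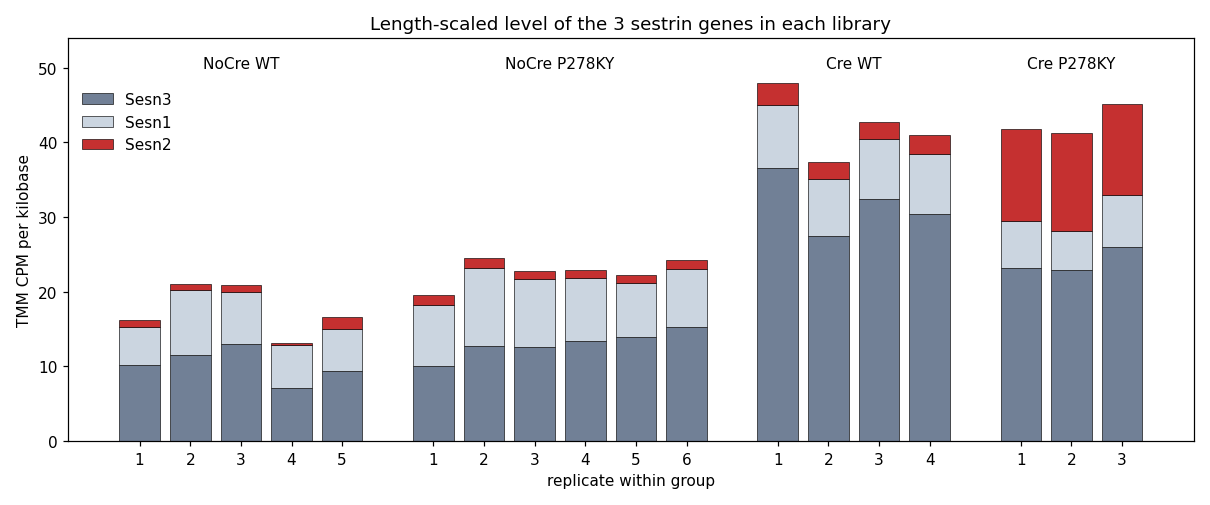
Stacked bars of the 3 sestrins in each library, in TMM CPM per kilobase of mean effective length, grouped by genotype and Cre. The bars of Cre WT (37.4 to 48.0) and Cre P278KY (41.2 to 45.2) have similar heights, and the Sesn2 part is 5.44% to 6.34% of the bar in Cre WT and 27.02% to 31.9% in Cre P278KY.

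Ddit4 (ENSMUSG00000020108, chr10:59949669-59951834, minus strand) is the TSC-dependent brake that shares ATF4 with Sesn2 as a regulator. Cre P278KY libraries had 9.48, 11.5 and 21.0 CPM, so replicate 3 was far above the others. Cre WT libraries had 11.2 and 8.65 CPM in pool 1 and 5.97 and 5.55 CPM in pool 2. The groups overlap, and the higher WT values are those of the pool that holds all mutant libraries, and also those of the male mice. The log2 fold change was 0.86 ± 0.33 (SE; edgeR adjusted p = 0.232) over all 7 libraries and 0.54 within pool 1 (adjusted p = 0.345). Without Cre, WT libraries had 3.84, 7.80, 7.36, 5.58 and 3.96 CPM and P278KY libraries 4.92 to 15.8 with a median of 7.93. That difference, 0.60 ± 0.32 (SE; adjusted p = 0.731), was of similar size to the one with Cre, and the interaction was 0.23 ± 0.50 (adjusted p = 0.912, 95% interval −0.75 to 1.22). That interval spans 0 widely, so a difference between the genotype effects was not resolved. Cre against NoCre gave 0.45 ± 0.35 in WT (adjusted p = 0.272) and 0.68 ± 0.35 in P278KY (0.0995), the latter 1.03 within pool 1 (0.0135).

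Ddit4l (ENSMUSG00000046818, chr3:137621612-137628333, plus strand) split among the Cre WT libraries by sequencing pool, which is there also a split by sex, and was low in Cre P278KY. It had 0.663, 0.245 and 1.44 CPM in Cre P278KY, which rest on 14, 6 and 21 counts. Cre WT libraries had 1.06 and 1.07 CPM in pool 1 and 5.30 and 6.63 CPM in pool 2. NoCre WT libraries had 5.06, 9.62, 10.1, 7.57 and 5.48 CPM, and NoCre P278KY libraries 5.75 to 9.39 with a median of 8.29. Both pool 2 libraries of Cre WT thus reach the NoCre range and both pool 1 libraries do not. The log2 difference between Cre P278KY and Cre WT was −2.24 ± 0.85 (SE; edgeR adjusted p = 0.232), and within pool 1 it was −0.42 (adjusted p = 0.806). Cre fell below NoCre by 3.39 ± 0.61 on the log2 scale in P278KY mice (adjusted p = 8.12e-05), with no overlap. In WT mice the value was −1.08 ± 0.48 (adjusted p = 0.0561), −2.74 within pool 1 (7.45e-04) and −0.39 within pool 2 (0.542). This WT value passed in 10 of 20 alternatives. Among these were DESeq2 (−1.24, adjusted p = 0.0169), limma voom (−1.26, 0.0203), RLE factors (−1.24, 0.0310), pool as a term (−1.20, 0.0351) and sex as a term (−1.19, 0.0354). It also passed without NoCre WT replicate 1 (−1.20, 0.0475), Cre WT replicate 3 (−1.31, 0.0448) or Cre WT replicate 4 (−1.59, 0.0115). The interaction was −2.31 ± 0.73 (adjusted p = 0.179).

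Oligodendrocyte markers varied in the same libraries. The summed level of 9 such genes, among them Mbp and Mog of the myelin sheath, was 433, 499 and 826 CPM in Cre P278KY. In Cre WT it was 494 and 882 CPM in pool 1 and 2180 and 2458 CPM in pool 2. NoCre libraries had 5138 to 5823 CPM in WT and 4378 to 5481 in P278KY. None of the 9 genes was at 0 in any group, and 0 of 9 passed the test between Cre P278KY and Cre WT (6 at an unadjusted p under 0.05, median log2 difference −1.54). The astrocyte marker sum was 184 to 499 CPM in Cre P278KY, 165 to 273 in Cre WT pool 1 and 709 to 968 in Cre WT pool 2. Of the other marker lists, 0 of 8 astrocyte, 0 of 8 microglia, 0 of 8 vascular and 0 of 9 skeletal muscle genes passed between Cre P278KY and Cre WT, with medians of −1.17, −0.16, −1.25 and −2.81 and with 2, 0, 1 and 8 genes at an unadjusted p under 0.05. Of 10 cholinergic markers 1 fell (Chodl, −2.53, edgeR adjusted p = 0.00320), with 5 at an unadjusted p under 0.05 (4 lower, 1 higher). Their sum was 1608 to 2080 CPM in Cre P278KY, 3061 to 3368 in Cre WT pool 1 and 1895 to 2095 in Cre WT pool 2, so within pool 1 the genotypes do not overlap. Without Cre 2 of the 10 fell in P278KY (Chodl, −2.55, edgeR adjusted p = 5.94e-05, and Chat, −1.45, 0.0339), with 6 at an unadjusted p under 0.05, all lower. There the sum was 60.8 to 80.5 CPM in P278KY and 103 to 127 in WT. The part of these cells in the values of Ddit4l and the other 6 genes was not tested.

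**Figure D3:**
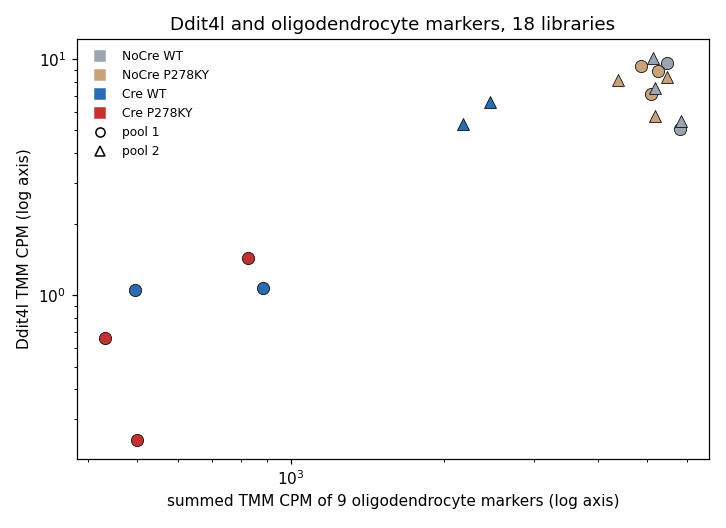
Ddit4l level against the summed level of 9 oligodendrocyte markers in each of the 18 libraries, both as TMM CPM on log axes; colours are groups, circles pool 1 and triangles pool 2. The 2 Cre WT libraries of pool 2 reach the NoCre range of Ddit4l at marker sums of 2180 and 2458 CPM, and the 2 of pool 1 lie with the Cre P278KY libraries.

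Eif4ebp1 (ENSMUSG00000031490, chr8:27260329-27276674, plus strand) had the lowest mean level per kilobase of the 7 in Cre WT and stood higher in the mutant, on few reads. Cre P278KY libraries had 1.90, 1.59 and 0.892 CPM (40, 39 and 13 counts). Cre WT libraries had 0.561, 0.741, 0.366 and 0.430 CPM (9, 9, 12 and 10 counts). The groups do not overlap. The log2 fold change was 1.55 ± 0.52 (SE), which did not pass (edgeR adjusted p = 0.182, 95% interval 0.52 to 2.57), and 1.26 within pool 1 (adjusted p = 0.298). The background pull-downs reached the same levels in single libraries. NoCre WT had 0.0873, 0.304, 0.199, 1.79 and 0.152 CPM, and NoCre P278KY had 0.168 to 2.27 with a median of 0.333. Cre against NoCre gave 0.18 ± 0.87 in WT (adjusted p = 0.865) and 1.27 ± 0.82 in P278KY (0.186), the latter 1.96 within pool 1 (0.0408) and 2.15 without NoCre P278KY replicate 6 (0.0206).

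Eif4ebp2 (ENSMUSG00000020091, chr10:61428491-61452661, minus strand), the 4E-BP known to predominate in brain, was far more abundant, also per kilobase. Cre P278KY libraries had 35.9, 20.4 and 23.1 CPM and Cre WT libraries 28.0, 18.9, 13.8 and 22.03 CPM. The values interleave, and the log2 difference was 0.39 ± 0.29 (SE; adjusted p = 0.568, 95% interval −0.18 to 0.96). NoCre WT libraries had 24.4, 27.4, 11.1, 41.4 and 34.2 CPM and NoCre P278KY libraries 12.4 to 69.0 with a median of 23.7, so no group stands apart. Cre against NoCre gave −0.42 ± 0.40 in WT (adjusted p = 0.376) and −0.13 ± 0.42 in P278KY (0.805). Per kilobase, Eif4ebp1 was 4.64% ± 1.54 (SD, n = 4) of the 2 genes' sum in Cre WT and 9.41% ± 3.00 (SD, n = 3) in Cre P278KY.

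**Figure D4:**
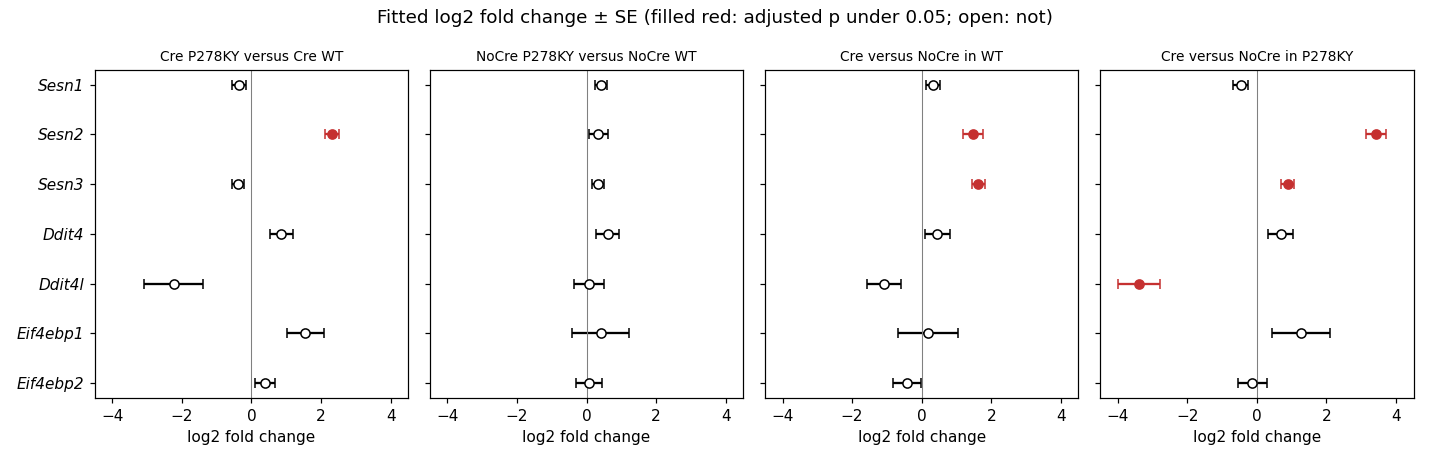
Fitted log2 fold change (x axis) with its SE for each of the 7 genes in 4 comparisons; filled red points passed an adjusted p of 0.05, open points did not. Sesn2 (2.31) is the point that passed between Cre P278KY and Cre WT, none passed without Cre, and Sesn2 and Sesn3 passed in both Cre against NoCre comparisons.

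Read as a family, the 7 genes had fitted differences of both signs in the mutant. Between Cre P278KY and Cre WT, 4 had a positive and 3 a negative fitted difference, the median was 0.39 (−0.01 over all genes), and 1 passed. Groups did not overlap for 4 of the 7 (Sesn2 and Eif4ebp1 higher, Sesn1 and Sesn3 lower), against 16.7% of all genes (8.2% higher, 8.45% lower). Without Cre, all 7 fitted genotype differences were positive, from 0.07 to 0.60, and 0 of 7 passed. In that comparison edgeR called 0.0233% of all genes, and the groups overlap for each of the 7 (0.724% of all genes do not). By edgeR, an unadjusted p under 0.05 was found without Cre for 1 of the 7 (Sesn1, 0.0311), against 1163 of all 17133 genes. DESeq2 and limma voom also called 0 of the 7 there. Between Cre P278KY and Cre WT, 4 of the 7 were under that value, against 2377 of 14717 genes. In the interaction it was 4 of the 7, against 1903 of 17133 genes. Cre against NoCre called 2 of 7 in WT (Sesn2 and Sesn3 higher) and 3 of 7 in P278KY (Sesn2 and Sesn3 higher, Ddit4l lower), below the 59.7% and 59.4% of all genes. Higher calls were 28.5% of all genes in WT and 28.2% in P278KY, and lower calls 31.2% in both. Groups did not overlap for 2 of 7 in WT (43.2% of all genes) and for 4 of 7 in P278KY (56.2%), where 2 were higher (28.3%) and 2 lower (27.9%). The comparisons share libraries and are not independent of each other.

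Per kilobase, the order of mean levels in Cre WT was Sesn3 (31.7), Eif4ebp2 (13.5 ± 3.90), Sesn1 (8.03), Ddit4 (5.13 ± 1.72), Sesn2 (2.56), Ddit4l (1.44 ± 1.18) and Eif4ebp1 (0.636 ± 0.201). The neighbours Sesn2 and Ddit4l, and Ddit4l and Eif4ebp1, lie within the wider SD of each other, and the effective length of Ddit4l itself varied between libraries (1136 to 2577 bases). In Cre P278KY it was Sesn3 (24.0), Eif4ebp2 (17.3 ± 5.41), Sesn2 (12.5), Ddit4 (9.16 ± 4.02), Sesn1 (6.17), Eif4ebp1 (1.77 ± 0.624) and Ddit4l (0.320 ± 0.248). Here Eif4ebp2, Sesn2, Ddit4 and Sesn1 each lie within the wider SD of the next.

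Few other genes of the mTORC1 pathway changed between the genotypes. Of 69 listed genes 65 were tested between Cre P278KY and Cre WT, 2 rose and 0 fell, or 3.08% against 2.32% of all genes, and the median log2 difference was 0.06. Lars, a leucyl-tRNA synthetase also described as a leucine sensor for the Rag GTPases, rose by 1.23 ± 0.21 (SE; adjusted p = 0.0126), from 38.5 ± 9.20 CPM in Cre WT to 88.4 ± 12.7 in Cre P278KY. Grb10, an adaptor that mTORC1 phosphorylates and that damps insulin receptor signalling, rose by 1.25 ± 0.28 (adjusted p = 0.0477), from 34.3 ± 12.6 to 80.6 ± 7.24 CPM. The list of GATOR and KICSTOR genes, which holds the sestrins' binding partners, had 0 of 11 called by edgeR and that of Rag and Ragulator 0 of 10, in both also 0 at an unadjusted p under 0.05. The genes of GATOR2 with the smallest p, Sec13 and Seh1l, had 0.43 and 0.43 (adjusted p = 0.418 and 0.432). In the TSC and Rheb list 0 of 5 passed, with 3 at an unadjusted p under 0.05: Tbc1d7, a subunit of the TSC complex, had −0.82 (adjusted p = 0.116), Rheb 0.50 (0.218) and Tsc1 0.42 (0.247). Mtor had −0.30 (0.466) and the S6 kinase gene Rps6kb1 −0.71 (0.122). Of the genes of the complex itself 0 of 5 were called (0 at an unadjusted p under 0.05), and of the upstream kinases Akt, Pdpk1, Stk11 and AMPK 0 of 11 (1 at an unadjusted p under 0.05).

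Between Cre and NoCre libraries, pathway genes were called about as often as all genes in either direction. They were called higher in Cre more often, and lower less often, than all genes. In WT mice 35 of the 65 were higher and 7 lower in Cre, 64.6% called against 59.7% of all genes (28.5% higher and 31.2% lower), with a median of 0.79 (−0.12 over all genes). The Rag and Ragulator list had 7 of 10 higher and 0 lower, with Rraga at 1.99 ± 0.20 (SE; adjusted p = 3.66e-08) and Rragb at 1.92 ± 0.33 (3.73e-05). In P278KY mice 31 were higher and 5 lower, 55.4% called against 59.4% of all genes (28.2% higher and 31.2% lower), with a median of 0.67 (−0.13 over all genes). By edgeR 0 of 65 passed between genotypes without Cre (4 at an unadjusted p under 0.05) and 0 of 65 in the interaction (6).

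**Figure D5:**
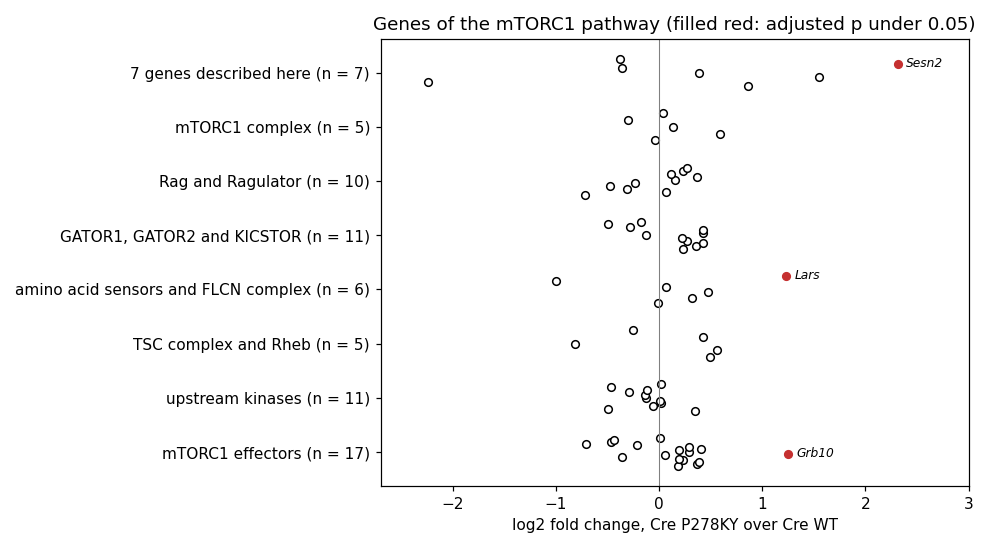
Log2 fold change between Cre P278KY and Cre WT (x axis) of the 7 genes and of 65 other mTORC1 pathway genes, 1 point per gene, in rows by role; filled red points passed an adjusted p of 0.05. Sesn2, Lars and Grb10 are the filled points, and the open points show the 69 genes that did not pass.

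Lists of genes under the known regulators of these brakes differed in how many rose between Cre P278KY and Cre WT. Over all 14717 genes, edgeR called 1.22% higher and 1.11% lower, and 2377 had an unadjusted p under 0.05. Of 27 integrated stress response targets, 22 rose and 0 fell (24 at an unadjusted p under 0.05). They include the amino acid transporter gene Slc7a3, from 1.81 ± 0.227 to 29.9 ± 0.843 CPM, the serine synthesis gene Psph, from 9.57 ± 2.18 to 75.7 ± 9.87, and the transcription factor gene Atf5, from 3.55 ± 0.572 to 26.4 ± 2.86. Of 15 p53 targets, 1 rose: the cell cycle inhibitor gene Cdkn1a, from 18.2 ± 14.7 to 198 ± 39.5 CPM, which is 3.42 ± 0.67 on the log2 scale (adjusted p = 0.0443). Others of that list, Plk2 (1.09, adjusted p = 0.0970), Btg2 (1.10, 0.191) and Pmaip1 (1.69, 0.237), did not pass. Of the 15 p53 targets, 6 were at an unadjusted p under 0.05. Of 12 hypoxia targets 1 rose (2 at an unadjusted p under 0.05). It was the angiogenic factor gene Vegfa (1.31 ± 0.22, adjusted p = 0.0128), which is also a known ATF4 target, while Bnip3 had −0.61 (0.178). Of 11 FoxO targets 0 passed (4 at an unadjusted p under 0.05), with Cited2 at 0.84 (0.0612). Of 12 glucocorticoid targets 0 passed (3 at an unadjusted p under 0.05), with Zbtb16 at 0.96 (0.0999) and Fkbp5 at −0.80 (0.173). The medians of these last 3 lists were −0.07, −0.07 and −0.34, and that of the p53 list was 0.51. Sesn2, a known target of both ATF4 and p53, rose, and Ddit4 did not pass. Most of the integrated stress response list rose too, and of the p53 list Cdkn1a did. The part of any of these regulators in the values of Sesn2, Ddit4 and the other brakes was not tested.

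Over the 18 libraries, the genes whose log2 CPM followed each brake most closely were named by their Pearson correlation, as a description. The libraries share groups, pools and purity, so a high r can come from differences between groups alone. For Sesn2 they were Rcc2 (r = 0.975), Tra2a (0.948) and Tcea1 (0.946). For Sesn3 they were Trappc2 (0.974), Hsdl2 (0.973) and Gnao1 (0.969). For Ddit4l they were Art3 (0.962), Plekhb1 (0.961) and Apln (0.958). The closest were looser for Eif4ebp2 (Tmem8b, 0.872, Ksr1, 0.844, and Cdc42se1, 0.844), Eif4ebp1 (Cnnm4, 0.834, Nhlrc1, 0.810, and Star, 0.789), Ddit4 (Thumpd1, 0.780, Hnrnpd, 0.756, and Iqcb1, 0.738) and Sesn1 (Nrep, 0.735, Kctd4, 0.734, and Sass6, 0.724).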

How the data were processed

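Immunoprecipitated RNA of 18 spinal cords was sequenced. The authors deposited, per library, RSEM expected counts, TPM and effective lengths. The submitters' processing notes list Bowtie2 2.2.0 and RSEM 1.2.12. The genome build is not given in the sources used here. Positions are from GENCODE M21 (GRCm38). Expected counts were rounded (the 7 genes' counts were whole in all 18 libraries). Pools were inferred from reused indices in the labels, which do not name them, and sexes from sex-linked transcripts. Cre P278KY against Cre WT was fitted on the 7 Cre libraries, the other 4 comparisons on all 18, with the edgeR 4.0.16 quasi-likelihood test (filterByExpr, TMM), two-sided, Benjamini-Hochberg adjusted over all genes tested, threshold 0.05. An adjusted p is edgeR's unless another tool is named. The log2 CPM levels used for correlations had a prior count of 2. Fitted log2 fold changes used the default of each tool. The 95% intervals are 1.96 SE from the normal distribution. With few libraries they are narrower than the quasi-likelihood test implies. The procedure was run on simulated counts with set fold changes. These held no effects of pool, sex or purity, so the run does not address them. DESeq2 1.42.0 and limma 3.58.1 voom, other scalings, filters, terms for pool, sex and the number (meaning not given) that opens the mouse names, pool-wise fits and leaving out each library were alternatives. The labels do not number replicates, and the p-values measure the spread between these mice. The genes, the lists and the rule for named genes (the 7 genes, up to 4 genes per list with the smallest adjusted p in Cre P278KY against Cre WT, and the 3 genes of highest correlation) were chosen with earlier results of these data known. Rraga, Rragb, Chat and Chodl were named after their values were seen. Of the oligodendrocyte markers 1 is not reported here. The deposited TPM values were used for 1 check of a share.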

Additional observations from a re-analysis of the deposited data

Results flagged for a closer look

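In groups of 4 or more libraries, 4 of 21 pairs of gene and group had 1 library set apart from the others by Dixon's test, which by chance would flag about 1 in 20. Ddit4 was highest in NoCre P278KY replicate 4, at 15.8 CPM, where the other 5 had 4.92 to 8.79. Eif4ebp1 was highest in NoCre WT replicate 4 (1.79 CPM, 9 counts) and in NoCre P278KY replicate 6 (2.27 CPM, 13 counts). Eif4ebp2 was highest in NoCre P278KY replicate 6, at 69.0 CPM. NoCre WT replicate 4 and NoCre P278KY replicate 6 were the libraries with the lowest share of counts in protein-coding genes of their group (23.0% and 37.5%). The part of that share in these values was not tested.

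The genotype effect on Sesn2 differed between libraries with and without Cre, with an interaction of 1.96 on the log2 scale (edgeR adjusted p = 0.0208). That interaction passed in 23 of 28 alternatives and did not pass with library size only (1.71, edgeR adjusted p = 0.397). Sesn2 was higher in all 3 Cre P278KY libraries than in all 4 Cre WT libraries, while the NoCre groups overlap.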

How the results depend on the processing

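The rise of Sesn2 in Cre P278KY over Cre WT passed the test in all 18 alternatives, with log2 values from 2.24 to 2.40, and its enrichment in P278KY in all 19. Its enrichment in WT passed in 19 of 20 (not within pool 2) and its interaction in 23 of 28. Sesn3 enrichment passed in 20 of 20 in WT and 18 of 19 in P278KY (0.91 with library size only, adjusted p = 0.0508).

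Genes called between Cre P278KY and Cre WT (342) became 148 with library size only (62.8% of them higher, against 52.3%), 972 by DESeq2, 1677 with pool as a term, 553 with sex as a term, 1664 with the number that opens the mouse names as a replicate block, 1343 within pool 1 and 95 to 324 leaving out 1 library (95, 121 and 126 without Cre P278KY replicates 1, 2 and 3). The 7 genes had 3 calls with the block (Ddit4 at 1.36 and Ddit4l at −2.56 added) and 2 in the fit of all 18 libraries. For enrichment in WT, pool 2 alone gave 4953 genes and 1 of the 7. Library size only gave 59.1% higher against 47.7% and moved the median of all genes from −0.12 to 0.20. For enrichment in P278KY, voom called 5 of the 7 and pool 1 alone 6. Between the NoCre genotypes (4 genes) the count was 2 with library size only, with the block, within pool 2 and without NoCre WT replicates 4 and 5, 28 by DESeq2 and 2 to 6 leaving out 1 library, and library size only moved the median of all genes to 0.35. The interaction (112 genes) gave 5 with library size only, 381 by DESeq2, 405 within pool 1 and 41 to 250 leaving out 1 library, and of the 7 genes 0 with library size only, 2 with the block and 0 to 1 leaving out 1 library. With the block Ddit4l in WT enrichment was −2.46 (adjusted p = 1.00e-04). What that number means is not given, and several mice share one. Its pairing was checked between libraries of different groups only. Of 12 such pairs sharing a number, 2 had a residual correlation over 0.1 (median −0.013). Of 107 such pairs with unlike numbers, 20 did (median −0.0023). The main fits did not pair mice by the number. Mice sharing a number within a group were not compared, so a common origin of theirs was not tested. The cause of these shifts was not tested.

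Signs turned only for values that did not pass. In WT enrichment, Eif4ebp2 was 0.0065 with library size only, and Eif4ebp1 ranged from −0.128 to 1.46 leaving out 1 library. In P278KY enrichment, Eif4ebp2 was 0.072 with library size only, 0.127 by voom, 0.0989 with pool as a term and 0.513 within pool 1, and −0.394 to 0.376 leaving out 1 library. Between NoCre genotypes, Eif4ebp2 was −0.0467 by voom, −0.399 within pool 1 and −0.412 to 0.229 leaving out 1 library, and Eif4ebp1 −0.441 (without NoCre P278KY replicate 6) to 1.61 (without NoCre WT replicate 4). There Ddit4l was −0.270 with the block, −0.0571 without NoCre WT replicates 4 and 5, −0.0661 within pool 2 and −0.0495 to 0.1997 leaving out 1 library. In the interaction, Ddit4 was −0.0589 with library size only and −0.182 to 0.494 leaving out 1 library. Eif4ebp2 was −0.0452 with the block, −0.0984 without NoCre WT replicates 4 and 5 and −0.000279 to 0.793 leaving out 1 library. Eif4ebp1 was −0.0850 without NoCre WT replicates 4 and 5 and −0.0831 to 1.97 leaving out 1 library. Counts of 1 to 40 per library limit Eif4ebp1, and 3 mutant libraries in 1 pool limit every genotype comparison with Cre.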
